A study of Mus musculus with 6 samples.

Results

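The amino acid transporter genes of the mouse ventricle were taken by symbol: every gene of the Slc1a, Slc6a, Slc7a, Slc36a, Slc38a and Slc43a families, plus Slc3a2. This gave 59 of the 18181 genes in the expression table. They were 57 transporter genes and 2 genes named for the opposite strand of a transporter gene, Slc7a6os and Slc6a19os. The families are defined by sequence, so a few members carry something else, such as creatine (Slc6a8), monoamines (Slc6a2, Slc6a3 and Slc6a4) or purine bases (Slc43a3). The study sequenced poly(A) RNA, in paired reads of 100 bases, from ventricles of C57BL6 mice, an inbred strain with no further allele or treatment named. The young group had 3 libraries from mice of 6 to 8 weeks, and the aged group had 3 libraries from mice of 24 to 26 months. Whether every sample is a mouse of its own is not in the labels, and p-values therefore reflect only how far these samples spread. Expression is in FPKM, fragment counts scaled to transcript length and to library size.

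Amino acids cross membranes through carriers that are grouped by substrate and driving ion. System A and system N carriers of the Slc38a family move small neutral amino acids and glutamine with sodium, Slc6a carriers use sodium and chloride, and some Slc36a carriers use protons. Several Slc7a carriers are light chains that reach the cell surface only when bound to the heavy chain encoded by Slc3a2, and they exchange an amino acid outside for another inside. Heart muscle keeps large pools of taurine, glutamine and creatine by such uptake, and amino acids taken up feed protein synthesis and the growth kinase mTORC1.

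The libraries of an age correlated across genes at 0.981 to 0.995 and those of different ages at 0.96 to 0.979, over genes that are not independent replicates. FPKM per library summed to between 529258 and 566499, and since read totals are not given the depth is unknown. A gene was tested when its mean over the 6 libraries was at least 1 FPKM, and a call means an adjusted p under 0.05 (Benjamini-Hochberg over the 11860 genes tested) in limma on log2(FPKM + 1). On that scale the median of all tested genes was -0.06, aged minus young. Cardiomyocyte markers were high in every library (8 markers, summed FPKM 47829 to 51868 in young and 55086 to 58628 in aged, 3 called higher). Several other marker lists held called genes too, where over all genes tested 9.32% were called higher and 17.1% lower. Of 9 endothelial markers 5 were called lower (summed FPKM 468 to 587 in young, 383 to 406 in aged), as were 6 of 8 fibroblast markers (677 to 798, 580.2 to 641) and 6 of 9 mural cell markers (927 to 1018, 382 to 421). Much of the mural sum in young was a single gene, Acta2, at 637, 470 and 523 FPKM in young and 40.4, 73.6 and 66.4 in aged. Among the mural markers 1, Abcc9, had a log2 difference above 0 (0.12, not called). Of 6 tested erythroid markers 5 were called lower and Epor higher (summed FPKM 11432 to 17538 in young, 7245 to 8322 in aged). Of 3 tested neutrophil markers 2 were called higher, S100a8 and S100a9, and the summed FPKM of the list overlapped between the ages (1.79 to 8.89 in young, 7.99 to 69.3 in aged). In aged replicates 1 to 3 S100a8 was at 17.4, 26.9 and 2.91 FPKM and S100a9 at 33.4, 40.2 and 3.15. Csf3r was not called (limma adjusted p = 0.0579). Mpo, Retnlg, Elane and Ly6g were too low to test, at or under 0.58 FPKM, and overlapped between the ages. In bulk tissue fewer cells of a type and less RNA per cell cannot be told apart, and the part of these lists in the results that follow was not tested. Aged replicates 1 and 2 held messages of stratified epithelium, among them Krt13, a keratin of such epithelia, at 152 and 250.3 FPKM against 0 in the other 4 libraries. For that reason each call was also read with aged replicate 3 as the only aged library.

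Messages for the system A carriers and for a pair of cationic amino acid exchangers were lower in old ventricle, and those for the carriers of taurine and creatine were higher. Among these the calls of Slc38a2, Slc7a6, Slc7a7 and the taurine carrier gene Slc6a6 were lost without certain single libraries. Of the 59 genes 28 reached the minimum and were tested, 5 were called higher in aged ventricle and 6 lower, and 31 were too low to test. Over all genes tested 9.32% were called higher, 17.1% lower and 26.4% in either direction, against 39.3% of the tested transporter set. The share of higher genes among all calls depended on the scaling, at 35.3% on the deposited scale, 49.6% with median-of-ratios scaling, 46.7% after quantile normalization and 28.2% on TPM. The calls among the members split 5 higher to 6 lower as deposited, 4 to 6 on TPM and 5 to 5 with each of the other scalings. The median log2 difference of the 28 tested members was -0.17, with 8 above 0 and 20 below. A call with a log2 difference of at least 1 in size was made for 3 members, Slc38a1, Slc38a4 and Slc6a17, and for 2.53% of all genes tested. Aged and young libraries did not overlap for 17 of the 28 members (60.7%), and for 43.0% of all genes tested. With aged replicate 3 as the only aged library, assumed to vary like the others, Slc38a1, Slc38a4 and Slc6a8 were called among 27 members tested, while 8.22% of all genes tested were called.

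**Figure D1:**
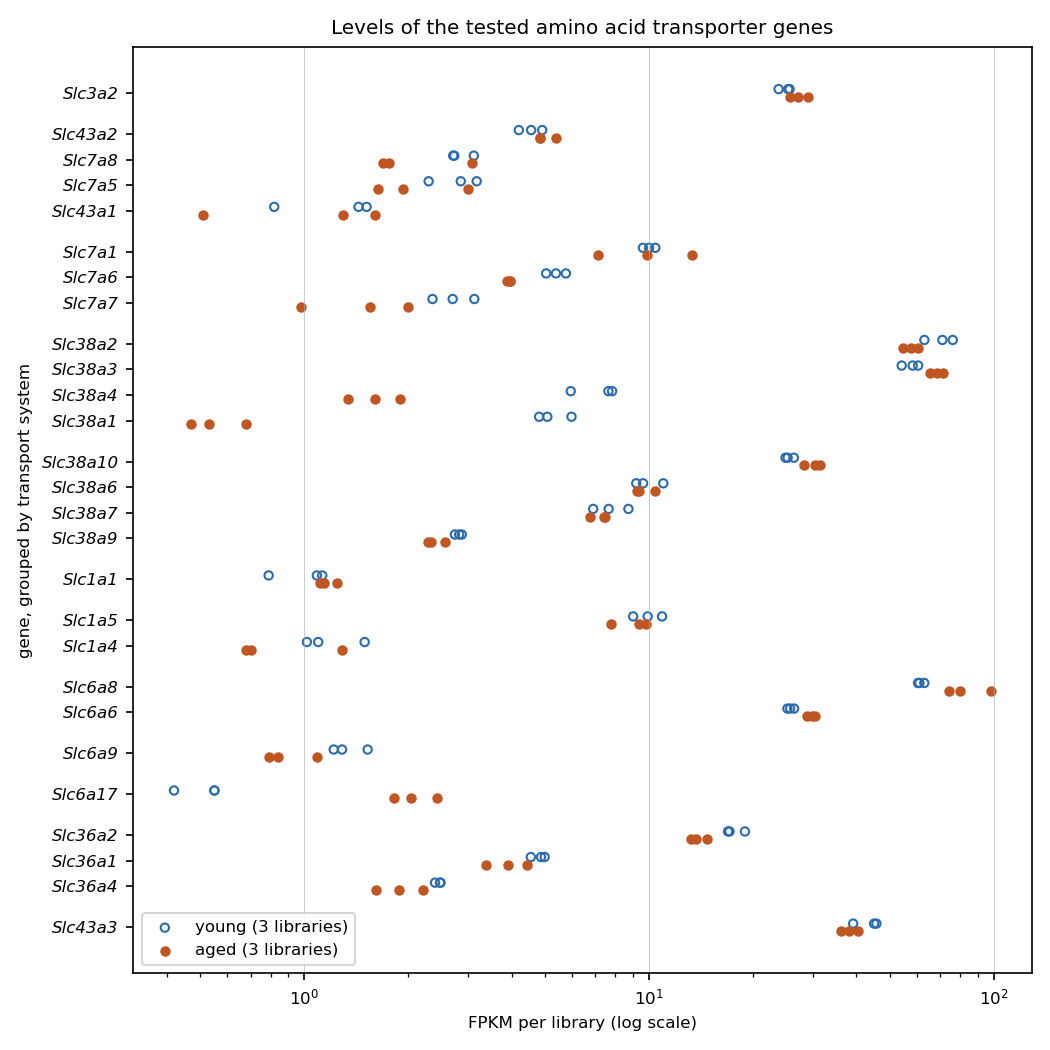
FPKM of each tested transporter gene in every library on a log axis, with open circles for the 3 young and filled circles for the 3 aged libraries, and genes grouped by transport system. Slc38a1 and Slc38a4 lie well to the left in all 3 aged libraries and Slc6a17 lies to the right, while the most abundant genes, such as Slc6a8 and Slc38a2, shift by little on this axis.

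The 2 largest differences were in system A, which supplies cells with alanine, serine and glutamine and has 3 members, Slc38a1, Slc38a2 and Slc38a4. Slc38a1 (chr15:96571418-96643438, GRCm38), a sodium-coupled carrier of glutamine and other small neutral amino acids, measured 4.81, 5.97 and 5.08 FPKM (young replicates 1 to 3, an order kept throughout) and 0.47, 0.53 and 0.68 (aged replicates 1 to 3). Every young library stood far above every aged one, and neither age spread widely. The mean went from 5.29 ± 0.607 to 0.560 ± 0.108 FPKM (SD, n = 3), 9.44 times lower, and the log2 difference was -2.01 (SE 0.118, limma adjusted p = 2.22e-05). On the log2(FPKM + 1) scale the change of a low gene is understated. Slc38a4 (chr15:96994816-97055956), which also carries cationic amino acids and is an imprinted gene in mouse, read 7.64, 5.94 and 7.83 FPKM across the young libraries and 1.9, 1.34 and 1.61 across the aged ones. Again the ages did not overlap, and the lowest young library was several times the highest aged one. Its mean went from 7.14 ± 1.04 to 1.62 ± 0.280 FPKM (SD, n = 3), 4.41 times lower, with a log2 difference of -1.63 (SE 0.127, limma adjusted p = 7.40e-05). Both genes were called in each of the 16 alternatives that gave a value, among them aged replicate 3 as the only aged library.

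Slc38a2 (chr15:96687392-96699728), the system A carrier that many cells induce when amino acids run short, was the most abundant of the 3. It was at 76.2, 63.0 and 71.1 FPKM when young and 54.7, 60.5 and 57.5 when aged. The ages did not overlap, but young replicate 2 and aged replicate 2 lay close together. Slc38a2 fell from 70.1 ± 6.63 to 57.6 ± 2.89 FPKM (SD, n = 3), a log2 difference of -0.28 (SE 0.0785, limma adjusted p = 0.0311). That call was lost without young replicate 1 or 3 (adjusted p = 0.0820 and 0.103) and without aged replicate 1 or 3 (0.0990 and 0.0621). It was also lost with median-of-ratios scaling, where the log2 difference was -0.21 (adjusted p = 0.102).

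These 3 genes lie next to each other on chromosome 15, all on the minus strand, within 484.5 kb, with gaps of 44.0 kb between Slc38a1 and Slc38a2 and of 295.1 kb between Slc38a2 and Slc38a4. The protein-coding genes on either side, within 200 kb of the span, were not called. On one side Arid2, a chromatin remodelling subunit, had a log2 difference of -0.13 (limma adjusted p = 0.425), and Scaf11, a splicing factor, of -0.06 (adjusted p = 0.549). On the other side Amigo2, a cell adhesion protein, was at 0.03 (adjusted p = 0.891) and Pced1b at 0.01 (adjusted p = 0.981). So among the protein-coding genes of this stretch the called differences were those of the 3 Slc38a genes. Genes of other types in the stretch were not looked at. Among the other members that are neighbours, Slc36a2 was called lower and Slc36a1, 19.2 kb away, was not called. Likewise Slc7a7 was called lower and Slc7a8, 302.1 kb away on chromosome 14, was not. Both uncalled neighbours also had log2 differences below 0, -0.25 for Slc36a1 and -0.30 for Slc7a8, so each went in the direction of its called neighbour.

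The sequences just before the starts of Slc38a2 and Slc38a4 are shown, and that of Slc38a1 was not used here. They were chosen because these neighbours fell by unlike amounts and their starts are unlike in composition, with that of Slc6a17, the called member with the largest positive log2 difference, for comparison. They are from RefSeq (GRCm38.p6, positions -160 to -11 before the annotated start, minus strand of the chromosome, read 5′ to 3′ along the gene), and capitals mark each CG pair, the pair of letters that DNA methylation acts on.
Slc38a2 at chr15:96699739-96699888: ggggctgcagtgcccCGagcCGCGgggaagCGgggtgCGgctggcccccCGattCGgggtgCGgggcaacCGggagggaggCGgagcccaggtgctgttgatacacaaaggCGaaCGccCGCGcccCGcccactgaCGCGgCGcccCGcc
Slc38a4 at chr15:97055967-97056116: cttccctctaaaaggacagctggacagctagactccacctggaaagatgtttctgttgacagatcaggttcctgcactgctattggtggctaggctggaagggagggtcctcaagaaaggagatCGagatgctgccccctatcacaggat
Slc6a17 at chr3:107518029-107518178: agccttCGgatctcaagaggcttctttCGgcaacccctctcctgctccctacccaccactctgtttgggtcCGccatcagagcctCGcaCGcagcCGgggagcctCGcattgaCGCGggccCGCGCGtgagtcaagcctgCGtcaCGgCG
The Slc38a2 stretch held 19 CG pairs, that of Slc6a17 15 and that of Slc38a4 1, all in 150 bases. In whole windows from 250 bases before to 50 after a start, Slc38a2 had 41 CG pairs and each of the 3 Slc38a4 starts had 5, where the median was 7.0 over all 32851 windows and 10.5 over the 62 windows of the members. The Slc6a17 window holding the stretch shown had 26, and the window of its other start had 3. Of the other called members with a window, Slc7a6, called lower, had 41 and 42. Slc7a7, also called lower, had 5 to 13, and Slc38a10, called higher, had 17. Because the stretches were picked on both points, their contrast follows from the choice, and a link of CG pairs with the change was not tested. These are descriptions of the sequence and not of methylation, which was not measured.

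System N, which carries glutamine, asparagine and histidine in either direction with sodium against protons, went the other way. Slc38a3 (chr9:107651154-107668968), its main carrier here, was at 58.3, 60.5 and 54.2 FPKM at the young age, against 65.6, 68.4 and 71.4 at the aged one, so the ages did not overlap. Slc38a3 rose from a mean of 57.6 ± 3.205 to 68.5 ± 2.88 FPKM (SD, n = 3), or 1.19-fold, and its log2 difference was 0.25 (SE 0.0640, limma adjusted p = 0.0223). The call did not hold without young replicate 3 (adjusted p = 0.0955), without aged replicate 2 or 3 (0.0542 and 0.0618), nor with aged replicate 3 as the only aged library (0.0868), although the log2 difference stayed between 0.20 and 0.31 in every alternative. The other system N gene, Slc38a5, was too low to test, at 0.52, 0.29 and 0.51 FPKM across the young libraries and 0.32, 0.06 and 0.14 across the aged ones, and its ages overlapped.

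**Figure D2:**
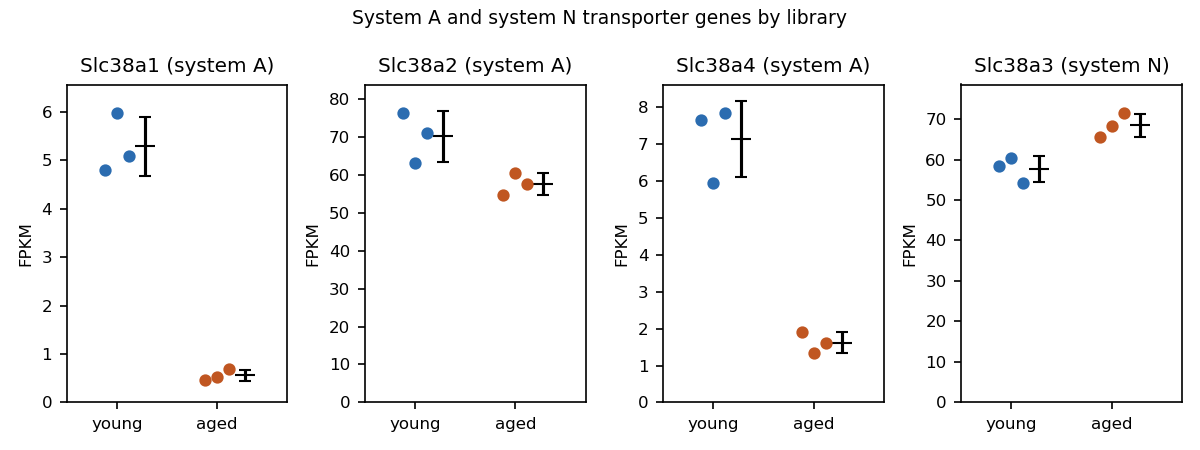
FPKM of the 3 system A genes and of Slc38a3 in each library, with points for libraries and bars for the mean and SD of 3 libraries per age, each panel on its own linear axis from 0. Slc38a1 and Slc38a4 drop to a small part of their young level, Slc38a2 is lower by 17.8% and Slc38a3 is higher by 18.8%.

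Read per library, the make-up of the Slc38a messages differed between the ages. The sums and ratios in this paragraph were chosen after the values had been seen and carry no test. The summed FPKM of the 3 system A genes was 88.6, 74.9 and 83.97 when young and 57.1, 62.4 and 59.8 when aged. Slc38a2 made up 84.9% of that sum on average in young and 96.3% in aged, while the share of Slc38a1 was 6.48% and 0.937% and that of Slc38a4 8.63% and 2.72%. The ratio of Slc38a3 to Slc38a2 was 0.765, 0.960 and 0.762 when young and 1.199, 1.13 and 1.24 when aged. In each young library system A's main message was thus the more abundant of the 2, and in each aged library system N's was.

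The remaining Slc38a genes encode carriers of lysosomes or carriers that are less well described, and they showed small differences. Slc38a10 (chr11:120103951-120151351), a less studied carrier of neutral amino acids, was at 25.3, 26.4 and 24.9 FPKM when young and 28.3, 31.5 and 30.3 when aged. The ages did not overlap, and Slc38a10 rose 1.18-fold, a log2 difference of 0.23 (SE 0.0645, limma adjusted p = 0.0316). This call was lost on TPM (log2 difference 0.19, adjusted p = 0.0897) and without each library except aged replicate 1 (adjusted p from 0.0590 to 0.113). Gm11769, on the opposite strand, shares 367 exon bases with Slc38a10 (5.72%), and without strand marking their reads cannot be told apart. Slc38a9, the lysosomal arginine sensor of mTORC1, was at 2.74, 2.82 and 2.87 FPKM at the young age, against 2.57, 2.29 and 2.34 at the aged one (log2 difference -0.17, SE 0.0957, limma adjusted p = 0.238). Its ages did not overlap, yet it did not pass the test. Slc38a7, which exports glutamine and asparagine from lysosomes, was at 6.9, 7.65 and 8.73 when young and 7.43, 7.46 and 6.76 when aged (log2 difference -0.09, adjusted p = 0.529). Slc38a6 was at 9.2, 9.63 and 11.02 when young and 9.35, 10.5 and 9.22 when aged (log2 difference -0.03, SE 0.0878, adjusted p = 0.804), a difference whose sign turned with median-of-ratios scaling and quantile normalization. For these last 2 genes the ages overlapped. Slc38a8 stayed at or under 0.11 FPKM in every library, and Slc38a11 measured 0.72, 0.50 and 0.39 when young and 0.38, 0.35 and 0.29 when aged, untested but without overlap.

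Of the 4 Slc6a genes abundant enough to test, 3 rose and 1, Slc6a9, was not called. Slc6a8 (chrX:73673133-73682502), the creatine transporter that supplies the muscle's phosphocreatine store, was at 60.4, 60.95 and 62.98 FPKM across the young libraries and 74.2, 80.1 and 98.4 across the aged ones. The young libraries were tightly grouped, the aged ones were spread out, and all aged values lay above all young ones. Slc6a8 rose from 61.4 ± 1.36 to 84.2 ± 12.6 FPKM (SD, n = 3), or 1.37-fold, and its log2 difference was 0.44 (SE 0.0961, limma adjusted p = 0.0108). This call held in all 17 alternatives, with log2 differences from 0.32 to 0.67. The taurine transporter gene Slc6a6 (chr6:91684048-91759063) was at 26.4, 25.7 and 25.2 FPKM when young and 30.4, 28.7 and 29.8 when aged, again without overlap. Slc6a6 rose 1.15-fold, a log2 difference of 0.19 (SE 0.0589, limma adjusted p = 0.0395). Its call was lost without each library in turn (adjusted p from 0.0512 to 0.136) and on TPM (log2 difference 0.15, adjusted p = 0.0983), so it rests on having all 6 libraries. Slc6a6 shares 117 exon bases (1.38%) with Gm44981 on the opposite strand.

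Slc6a17 (chr3:107467548-107518018), a carrier of neutral amino acids known from synaptic vesicles of neurons, was low in young ventricle at 0.42, 0.55 and 0.55 FPKM and reached 1.82, 2.43 and 2.05 in the aged libraries. Every aged value was several times the highest young value. Slc6a17 rose from 0.507 ± 0.0751 to 2.10 ± 0.308 FPKM (SD, n = 3), or 4.14-fold, and its log2 difference was 1.04 (SE 0.132, limma adjusted p = 9.88e-04). Every young value was under 1 FPKM, so the gene reached the minimum for testing only through its aged libraries. With no filter on low values it was called too (limma adjusted p = 0.00197). It was called in all 15 alternatives that gave a value. For its low mean it was not tested with aged replicate 3 as the only aged library or under the minimum of 5 FPKM. Of 9 markers of neurons and Schwann cells 3 were tested and 1 was called, Dbh, which was lower. Their summed FPKM was 7.40 to 9.02 in young and 5.02 to 6.86 in aged, and the part of this list in the result was not tested. Of its neuronal genes Tubb3, a tubulin, was at 0.80, 1.08 and 1.38 FPKM in young and 1.5, 1.22 and 1.7 in aged and was not called (log2 difference 0.25, limma adjusted p = 0.25), Prph was at most 0.26 FPKM, and Snap25 and Th were at or under 0.06 FPKM in every library. Slc6a9, a glycine transporter, was at 1.29, 1.22 and 1.53 FPKM at the young age, against 1.09, 0.84 and 0.79 at the aged one. Its ages did not overlap, but it did not pass the test (log2 difference -0.30, SE 0.132, limma adjusted p = 0.127), and 27.8% of its exon bases lie opposite exons of Ccdc24.

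The other 15 Slc6a transporter genes were too low to test. They include the noradrenaline, dopamine and serotonin transporters Slc6a2, Slc6a3 and Slc6a4, the GABA and betaine carriers Slc6a11, Slc6a12 and Slc6a13, and the epithelial carriers Slc6a14, Slc6a18, Slc6a19, Slc6a20a and Slc6a20b. Slc6a5, a neuronal glycine transporter, and Slc6a15, a neutral amino acid carrier of neurons, were at or under 0.10 FPKM in every library. Slc6a4 had the highest single value of the 15, 0.44 FPKM in aged replicate 2. Slc6a7, a proline transporter known from brain, was at 0.03, 0.15 and 0.09 FPKM across the young libraries and 0.35, 0.24 and 0.24 across the aged ones. Its ages did not overlap, and with no filter on low values it was called (log2 difference 0.23, limma adjusted p = 0.0461).

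The cationic amino acid carriers bring arginine and lysine into the cell or exchange them. Among them Slc7a6 and Slc7a7, light chains that exchange a cationic for a neutral amino acid and sodium (system y+L), were lower in old ventricle. Slc7a6 (chr8:106168219-106198714) was at 5.38, 5.75 and 5.04 FPKM when young and 3.95, 3.95 and 3.89 when aged. The 3 aged values were nearly equal and all lay under the young ones. Slc7a6 fell from 5.39 ± 0.355 to 3.93 ± 0.0346 FPKM (SD, n = 3), a log2 difference of -0.37 (SE 0.0835, limma adjusted p = 0.0118), and the call was lost without young replicate 2 (adjusted p = 0.0513) and with aged replicate 3 as the only aged library (0.115). Slc7a7 (chr14:54369442-54420068) was at 2.7, 2.36 and 3.12 FPKM at the young age, against 1.55, 0.98 and 2.0 at the aged one, without overlap but with more spread. Slc7a7 fell from 2.73 ± 0.381 to 1.51 ± 0.511 FPKM (SD, n = 3), 1.81 times lower, with a log2 difference of -0.59 (SE 0.164, limma adjusted p = 0.0292). Its call was lost without young replicate 1 or 3 (adjusted p = 0.0609 and 0.110) and without aged replicate 1 or 2 (0.0674 and 0.0702). The Slc7a7 call was also lost after quantile normalization and with no filter on low values. With aged replicate 3 as the only aged library the log2 difference was -0.31 (adjusted p = 0.288). Macrophages also express Slc7a7, and of 9 macrophage markers 2 were called lower, Csf1r and Mrc1 (22.2%, beside 17.1% of all genes tested called lower). The markers had summed FPKM of 357 to 366 in young and 286 to 344 in aged, and their part in the result was not tested. Exons of Oxa1l, a mitochondrial insertase gene on the opposite strand, cover 232 exon bases of Slc7a7 (7.0%).

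Slc7a1, the main arginine importer of many cells, was at 10.5, 9.62 and 10.02 FPKM across the young libraries and 9.89, 13.4 and 7.14 across the aged ones. The aged libraries spread to both sides of the young ones, the log2 difference was -0.02 (SE 0.173, limma adjusted p = 0.935), and its sign turned with median-of-ratios scaling and quantile normalization. Below the minimum were Slc7a2, at 0.51, 0.44 and 0.52 FPKM when young and 0.96, 0.65 and 0.56 when aged, and Slc7a14, at 0.29, 0.21 and 0.23 when young and 0.35, 0.37 and 0.46 when aged, each with all aged values above the young ones. Slc7a4 and Slc7a3 overlapped between the ages, at 0.25 to 1.25 and 0.04 to 0.19 FPKM. Slc7a7 was also looked at for the letters TGATGNAA, the core of the element through which the factor ATF4 with a C/EBP partner acts on genes when amino acids are short. Of the called members with a promoter window, only Slc7a7 held that motif within the window. Bases outside the windows were not searched, so the motif may lie elsewhere in the other genes. The called members Slc38a1, Slc38a3, Slc6a6, Slc6a8 and Slc36a2 had no window and were not searched. The Slc7a7 stretch is shown for that reason (RefSeq, GRCm38.p6, positions -160 to -11, minus strand, motif in capitals).
Slc7a7 at chr14:54417955-54418104: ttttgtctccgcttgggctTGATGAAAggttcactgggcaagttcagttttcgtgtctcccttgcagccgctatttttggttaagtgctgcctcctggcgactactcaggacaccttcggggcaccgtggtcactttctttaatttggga
The motif was searched on both strands from 250 bases before to 50 after each start and occurred in 3 of 42 members with a window (7.14%), Slc7a7, Slc7a11 and Slc1a4, and in 4.51% of all 27025 genes. Per window the shares were 6.45% of 62 and 3.97% of 32851. In Slc7a7 it lay at -141 to -134 in the window shown, with a further match at -1 to 7. In Slc7a11, the cystine carrier, it lay at -66 to -59 and, on the other strand, at -47 to -40. A match is a run of letters and not a measured binding site.

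Slc7a11 itself was too low to test, at 0.04, 0 and 0.01 FPKM at the young age, against 0.15, 0.26 and 0.02 at the aged one. Slc7a10 and Slc7a15 were at 0 in each young library and at or under 0.18 in the aged ones. Slc7a13, an acidic amino acid carrier known from kidney tubules, was at 0.05, 0.05 and 0.05 FPKM across the young libraries and 0.59, 2.28 and 0.77 across the aged ones. All aged libraries lay above the young ones and aged replicate 2 stood well above the rest. Its mean over the libraries was below the minimum, and with no filter it was called (log2 difference 0.998, limma adjusted p = 0.0405), as it was on TPM. The 3 kidney tubule markers in the table summed to 0.52 to 0.64 FPKM in young and 0.36 to 0.74 in aged. The 10 stratified epithelium markers summed to 425, 627 and 153 FPKM in aged replicates 1 to 3 and to 112 to 119 in young. Nearly all of the sum in young and in aged replicate 3 was Dsp, at 119, 112 and 116 FPKM in young and 139, 168 and 152 in aged. The keratins of the list and Sprr3 were at 0 FPKM in aged replicate 3, where Slc7a13 was at 0.77. The part of this list in the Slc7a13 values was not tested.

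System L, the exchangers and carriers of leucine, other branched-chain and aromatic amino acids, had 4 members tested and 0 called by limma at an adjusted p under 0.05. None of the 4 had an unadjusted p under 0.05 either. Slc43a2 was at 4.56, 4.91 and 4.2 FPKM when young and 4.83, 4.83 and 5.4 when aged (log2 difference 0.12, SE 0.0897, limma adjusted p = 0.377). The light chain Slc7a8 was at 2.73, 3.11 and 2.71 when young and 1.7, 3.07 and 1.77 when aged, where aged replicate 2 lay among the young values (log2 difference -0.30, SE 0.162, adjusted p = 0.206). Without aged replicate 2 Slc7a8 was called, with a log2 difference of -0.49 (adjusted p = 0.0244). The light chain Slc7a5, the best known leucine importer of growing cells, was at 2.3, 2.85 and 3.17 when young and 1.64, 1.94 and 2.99 when aged (log2 difference -0.26, adjusted p = 0.287), and there aged replicate 3 lay among the young values. Slc43a1 was at 0.82, 1.44 and 1.52 when young and 1.61, 1.3 and 0.51 when aged, with overlap (log2 difference -0.10, adjusted p = 0.772).

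The heavy chain Slc3a2 was at 23.8, 25.4 and 25.6 FPKM at the young age, against 27.1, 25.7 and 28.9 at the aged one. The aged values lay above the young ones by a narrow margin, and the difference did not pass the test (log2 difference 0.12, SE 0.0679, limma adjusted p = 0.220). As a description chosen after the values were seen, with no test, the light chains that pair with it summed to 13.2, 14.1 and 14.1 FPKM in young and 9.05, 10.2 and 10.7 in aged libraries. The ratio of Slc3a2 to this sum was 1.81, 1.803 and 1.82 when young and 2.99, 2.52 and 2.71 when aged. The young ratios were nearly equal, and every aged ratio was higher. The ratio of Slc6a8 to Slc6a6, at 2.29, 2.37 and 2.495 when young and 2.44, 2.79 and 3.305 when aged, overlapped between the ages.

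**Figure D3:**
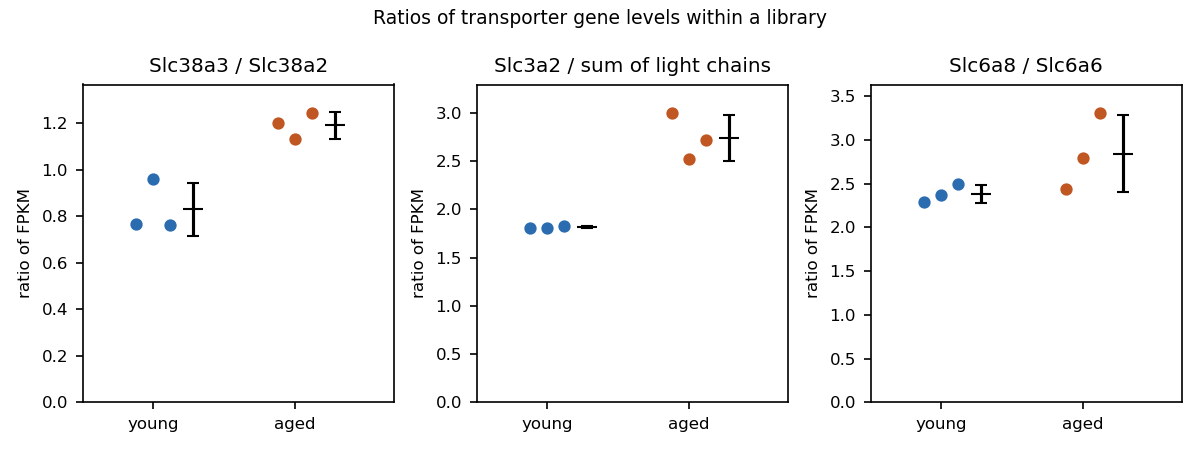
Ratios of FPKM within each library, with points for libraries and bars for the mean and SD of 3 libraries per age on linear axes from 0. Slc38a3 over Slc38a2 lies below 1 in the young and above 1 in the aged libraries, Slc3a2 over the sum of its light chains is near 1.8 in the young and above 2.5 in the aged libraries, and Slc6a8 over Slc6a6 overlaps.

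The Slc36a genes, which include proton-coupled carriers of glycine, proline and alanine, were all lower in the aged libraries, and 1 of 3 was called. Slc36a2 (chr11:55158468-55185099), a high-affinity carrier of glycine and proline, was at 19.01, 17.2 and 16.98 FPKM across the young libraries and 14.7, 13.7 and 13.3 across the aged ones. The ages did not overlap, and Slc36a2 fell from 17.7 ± 1.13 to 13.9 ± 0.742 FPKM (SD, n = 3), a log2 difference of -0.33 (SE 0.0737, limma adjusted p = 0.0123). It was called in 16 of 17 alternatives, the exception being aged replicate 3 as the only aged library (log2 difference -0.39, adjusted p = 0.0723). Slc36a1, the carrier of lysosomal membranes, was at 4.55, 4.99 and 4.87 when young and 3.37, 3.91 and 4.43 when aged (log2 difference -0.25, SE 0.102, limma adjusted p = 0.106). Slc36a4 was at 2.48, 2.49 and 2.4 when young and 1.89, 2.21 and 1.62 when aged (log2 difference -0.25, adjusted p = 0.130). For both the aged libraries lay under the young ones without passing the test.

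The Slc1a family holds the glutamate carriers and the neutral exchangers of system ASC, and 0 of its 3 tested members were called by limma, with 0 at an unadjusted p under 0.05. Slc1a5, an exchanger of glutamine and other neutral amino acids, was at 9.01, 9.93 and 10.9 FPKM when young and 9.84, 7.79 and 9.36 when aged (log2 difference -0.13, SE 0.102, limma adjusted p = 0.369). Slc1a4, which carries serine, alanine and cysteine, was at 1.1, 1.02 and 1.5 when young and 0.68, 0.70 and 1.29 when aged (log2 difference -0.23, SE 0.168, adjusted p = 0.343). The glutamate carrier Slc1a1 was at 0.79, 1.13 and 1.09 when young and 1.11, 1.14 and 1.25 when aged (log2 difference 0.12, SE 0.131, adjusted p = 0.552), and 31.9% of its exon bases lie opposite exons of 4430402I18Rik. In all 3 the ages overlapped. The other glutamate carriers, Slc1a2, Slc1a3, Slc1a6 and Slc1a7, stayed at or under 0.72 FPKM. Slc43a3, a carrier of purine bases, was abundant at 39.2, 45.7 and 45.04 when young and 38.1, 36.2 and 40.5 when aged, with overlap (log2 difference -0.17, SE 0.0769, adjusted p = 0.131). It was called lower without young replicate 1 (log2 difference -0.24, adjusted p = 0.0399) and with library quality weights (-0.21, adjusted p = 0.0476). Slc7a6os lies beside Slc7a6 on the opposite strand and shares no exon bases with it. It was at 7.85, 7.12 and 8.24 when young and 6.89, 6.97 and 6.26 when aged (log2 difference -0.18, SE 0.0833, adjusted p = 0.145). Slc6a19os was at or under 0.08 in every library.

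**Figure D4:**
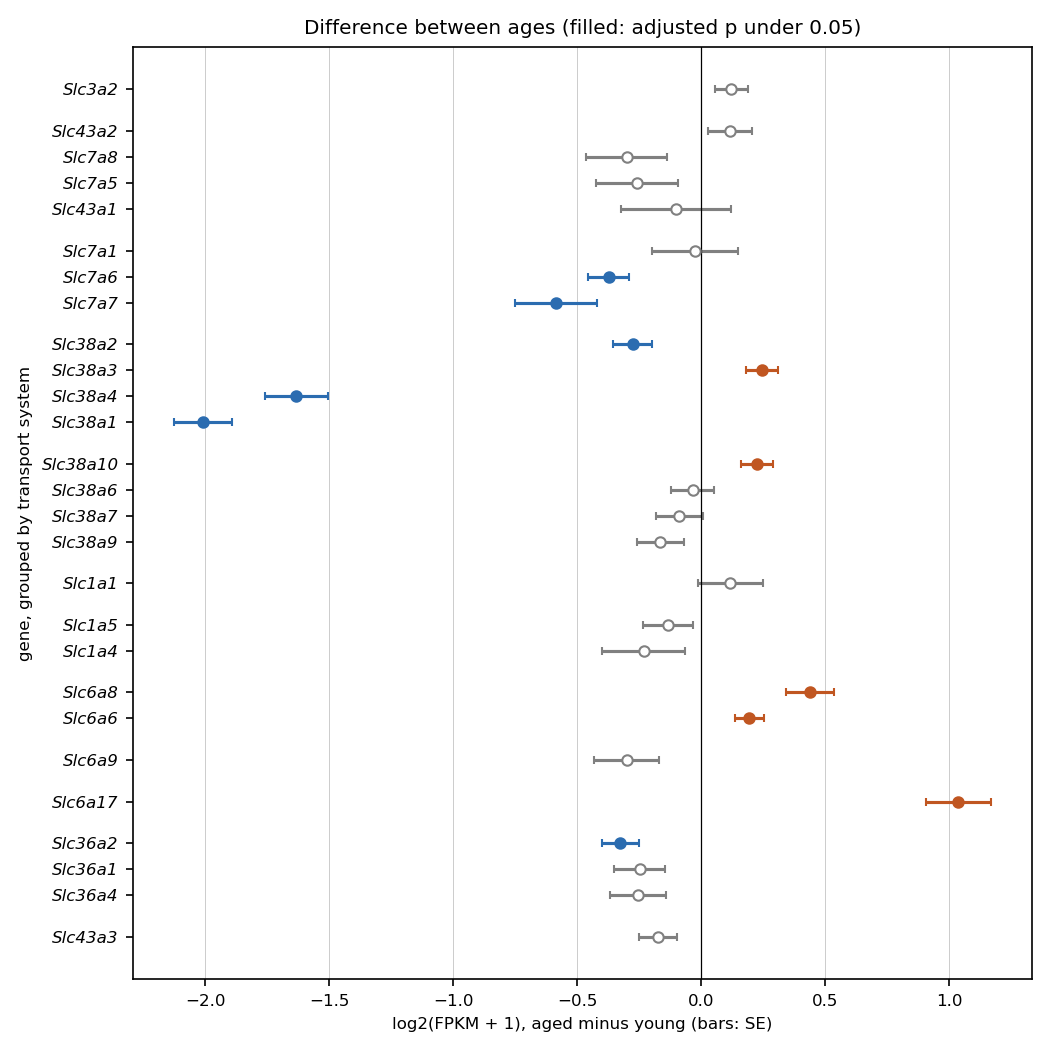
Log2 difference of each tested transporter gene, aged minus young, on the log2(FPKM + 1) scale with bars for the SE of the limma fit over 3 libraries per age, genes grouped by transport system and called genes filled. The called differences run from -2.01 for Slc38a1 to 1.04 for Slc6a17, and 16 of the 27 genes are not called.

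By level per transcript length, the order of the most abundant members changed between the ages. In young ventricle Slc38a2 came first, then Slc6a8 and Slc38a3, which overlapped, then Slc43a3. The lowest Slc38a2 value there was only just above the highest value of Slc6a8. In aged ventricle the order was Slc6a8, Slc38a3, Slc38a2 and Slc43a3, and each was separated from the next in all 3 libraries. Slc6a6, Slc38a10 and Slc3a2 followed in both ages and overlapped with each other, and Slc36a2 came after them. Slc36a2 was separate from the next gene, Slc7a1, in young libraries, while in aged libraries they overlapped. The summed FPKM of all transporter members was 412, 412 and 419 in young and 405, 423 and 441 in aged libraries, with overlap. The share of it in the 6 most abundant genes averaged 68.5% in young and 72.8% in aged.

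Other genes that handle amino acids were read from lists chosen with the transporter set, in the fit of all 6 libraries alone. Of 18 genes of the amino acid response, the programme of the kinase GCN2 and the factor ATF4, 5 were called lower and 0 higher, a share of 27.8% beside the 26.4% of all genes tested. Cebpb, a partner of ATF4, was at 43.8, 42.7 and 46.98 FPKM at the young age, against 19.6, 21.1 and 22.7 at the aged one (log2 difference -1.04, limma adjusted p = 4.44e-05). Ddit4, an inhibitor of mTORC1 signalling, was at 45.04, 47.2 and 52.4 when young and 24.7, 24.5 and 17.9 when aged (log2 difference -1.09, adjusted p = 4.44e-04). For both the aged libraries lay far below the young ones. The GCN2 gene Eif2ak4 was at 2.41, 2.89 and 3.06 when young and 2.0, 1.64 and 1.71 when aged (log2 difference -0.44, adjusted p = 0.0222), and the glutathione-degrading enzyme Chac1 at 1.44, 4.09 and 1.97 when young and 0.51, 0.50 and 1.07 when aged (log2 difference -0.99, adjusted p = 0.0231). The fifth, Psat1, an enzyme of serine synthesis, had a log2 difference of -0.45 (adjusted p = 0.0310). Atf4 itself was at 78.7, 73.7 and 82.2 when young and 72.8, 71.3 and 79.6 when aged, with overlap (log2 difference -0.07, adjusted p = 0.498).

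Of 39 tested genes of amino acid sensing by mTORC1, 2 were called higher and 3 lower, a share of 12.8% that was below the 26.4% of all genes tested. The kinase gene Mtor was at 11.1, 10.3 and 10.7 FPKM across the young libraries and 13.1, 12.96 and 13.9 across the aged ones (log2 difference 0.29, limma adjusted p = 0.0146), and the arginine sensor Castor1 at 2.94, 4.15 and 4.63 when young and 2.77, 1.66 and 2.58 when aged (log2 difference -0.56, adjusted p = 0.0422). Neither overlapped between the ages. Tsc2, whose protein restrains mTORC1, had a log2 difference of 0.25 (adjusted p = 0.0376), and Tfe3, a lysosomal transcription factor, of -0.25 (adjusted p = 0.0246). The fifth was Sesn1, a leucine sensor of the sestrin family, at -0.19 (adjusted p = 0.0478).

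Among 19 tested enzymes of glutamine, glutamate, taurine, creatine and arginine metabolism 4 were called higher and 2 lower (31.6%, beside 26.4% of all genes tested). The carrier messages of creatine and taurine were called higher, that of taurine only with all 6 libraries. Gatm, the first enzyme of creatine synthesis, was at 3.93, 5.16 and 3.85 FPKM when young and 1.69, 1.6 and 1.84 when aged (log2 difference -0.96, limma adjusted p = 8.67e-04). Cdo1, which makes the precursor of taurine from cysteine, was at 0.63, 0.45 and 0.62 when young and 2.07, 3.08 and 2.34 when aged (log2 difference 1.15, adjusted p = 8.91e-04). Gatm was lower and Cdo1 higher in every aged library than in every young one. The enzyme Glul, which makes glutamine, was at 98.7, 121 and 132 when young and 140.3, 154 and 165 when aged (log2 difference 0.39, adjusted p = 0.0265). The endothelial nitric oxide synthase Nos3, which uses arginine, was at 16.9, 18.0 and 18.3 when young and 13.6, 12.9 and 14.7 when aged (log2 difference -0.35, adjusted p = 0.00867), and the aspartate aminotransferase Got1 at 398, 355 and 365 when young and 466, 428 and 452 when aged (log2 difference 0.27, adjusted p = 0.0153). Ass1, an enzyme that regenerates arginine, had a log2 difference of 0.51 (adjusted p = 0.0419). The ages did not overlap for Glul, Nos3, Got1 or Ass1.

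Of 8 other tested amino acid and peptide transporters 1 was called higher and 1 lower (25%, beside 26.4% of all genes tested). Slc17a7, a vesicular glutamate transporter of neurons, was at 8.84, 9.2 and 8.86 FPKM at the young age, against 25.3, 22.5 and 23.1 at the aged one (log2 difference 1.30, SE 0.0702, limma adjusted p = 1.66e-05), 2.63-fold higher with no overlap. The peptide carrier Slc15a2 was at 2.29, 2.24 and 2.22 when young and 0.59, 1.61 and 1.37 when aged (log2 difference -0.60, adjusted p = 0.0386). Among 7 tested accessory and regulatory proteins 1 was called higher and 2 lower (42.9%, beside the same 26.4%). The kinase gene Sgk1, which acts on several transporters, was at 43.04, 44.1 and 45.02 when young and 33.7, 32.9 and 35.1 when aged (log2 difference -0.37, adjusted p = 0.00259). Bsg, a chaperone of transporters, was at 901, 991 and 942 when young and 1203, 1204 and 1326 when aged (log2 difference 0.40, adjusted p = 0.00312), and the arrestin gene Arrdc3 at 11.2, 11.9 and 12.98 when young and 7.73, 11.2 and 7.18 when aged (log2 difference -0.44, adjusted p = 0.0495). Of these 3, Arrdc3 overlapped between the ages.

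**Figure D5:**
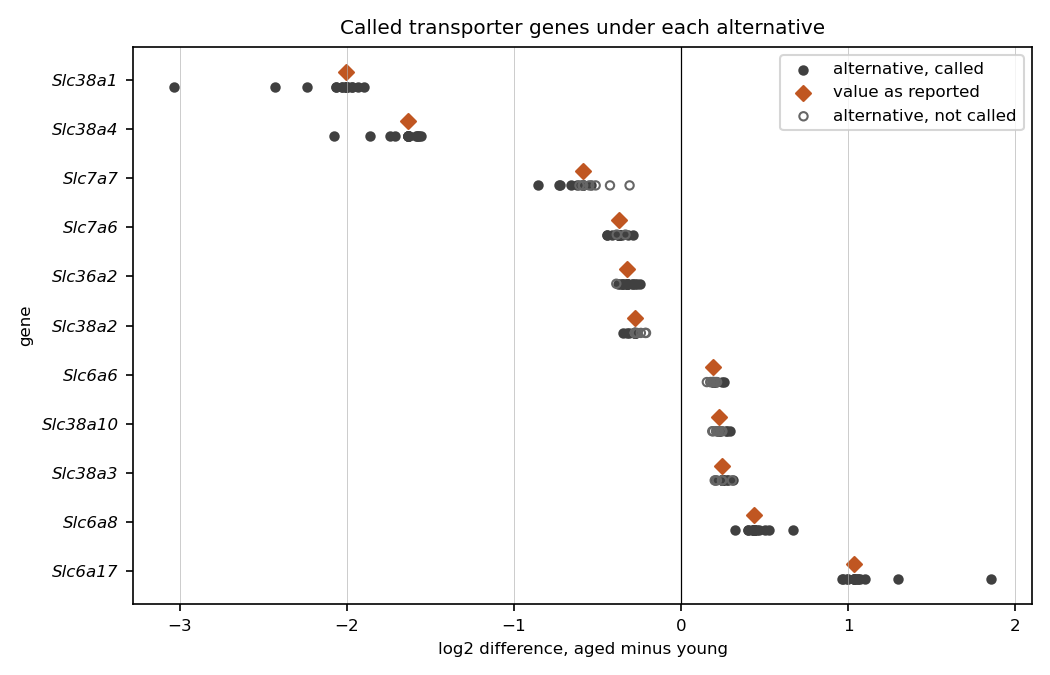
Log2 difference, aged minus young, of the 11 called transporter genes, with a diamond for the value as reported and a circle for each alternative, filled where the gene was still called. Slc38a1, Slc38a4, Slc6a8 and Slc6a17 are called in every alternative that gave a value, and no gene crosses 0.

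Across the 11 called members the alternatives thus divided them. Slc38a1, Slc38a4, Slc6a8 and Slc6a17 were called in each alternative that gave a value, as the plot of log2 differences by alternative shows. For Slc6a17, which reached the minimum only through its aged libraries, aged replicate 3 as the only aged library gave no value. Slc36a2 and Slc7a6 were called in 16 of 17 and 14 of 16. Slc38a3 was called in 12 of 17, Slc7a7 in 9 of 16, Slc38a2 and Slc38a10 in 8 of 17 each and Slc6a6 in 7 of 17. In no alternative did any of the 11 change direction.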

How the data were processed

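The authors deposited 1 table of FPKM for 18181 genes in 6 libraries, per the file headers. Tools named in the submitters' processing notes, with no role given, are RSEM 1.2.12, Bowtie2 2.2.5, HISAT2 2.0.4 and DESeq2 1.4.5, beside the build mm10. The sources used here give no annotation, filter or strand marking. FPKM give no read totals, so depth and counting error are unknown.

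The labelled age set the groups. Aged and young libraries were compared in limma 3.58.1 under R 4.3.3 (lmFit, eBayes with trend, two-sided) on log2(FPKM + 1), for genes averaging 1 FPKM or more, with Benjamini-Hochberg adjustment over all of them and calls under 0.05. The steps were tested on simulated data. With 3 libraries per age the smallest p of an exact permutation test is 0.1, and the calls therefore depend on limma's pooled spread.

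The members and all lists were chosen with earlier results of these data known. Values per library are given for each called member and each member with a mean of at least 5 FPKM, an SE for the largest called differences and the 2 most abundant members of each system, and values for up to 4 called members of each other list, picked by statistic; further genes were named to complete a count or after their values were seen. Of the members too low to test, 1 is not reported here. Alternatives were 3 scalings (TPM, median-of-ratios, quantile), no filter, a minimum of 5 FPKM, a pseudocount of 0.1, a prior variance without trend, a robust prior, library weights, each library left out, the replicate block, aged replicate 3 as the only aged library, and a minimum log2 difference of 1. Promoter windows and gene coordinates are from RefSeq (GRCm38.p6); exon overlaps were read from the GENCODE annotation of the same build. Figures were made in Python 3.11.15 (pandas 2.3.3, matplotlib 3.10.9).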

Additional observations from a re-analysis of the deposited data

How the results depend on the processing

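The count of members called higher, 5 as reported, was 3 with a prior variance without trend, 1 with aged replicate 3 as the only aged library and 1 at a minimum log2 difference of 1, and it ran from 2 to 4 when each library was left out in turn. The count of members called lower, 6 as reported, was 2 under a minimum of 5 FPKM, where 13 members were tested, 2 with aged replicate 3 as the only aged library and 2 at a minimum log2 difference of 1, and it ran from 4 to 6 when each library was left out. With the replicate number as a block 2 members were called higher and 5 lower, but the numbers do not pair the samples, whose deviations correlated at 0.0413, -0.0795 and 0.0378 for replicates 1, 2 and 3. With no filter 7 were called higher and 4 lower, Slc7a13 and Slc6a7 being added and Slc7a7 and Slc38a2 lost. The other settings gave 4 or 5 higher and 5 to 7 lower. None of the 11 called members changed direction in any alternative. The cause of these changes was not tested. Slc6a6, Slc38a10, Slc38a3 and Slc38a2, whose means differed by at most 1.22-fold, each lost their call when certain single libraries were left out. So did Slc7a7, whose means differed by 1.81-fold, and Slc7a6, whose means differed by 1.37-fold, the latter without young replicate 2. The FPKM give no depth, so how far counting error limits the members below 1 FPKM is unknown.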
